A study of Mus musculus with 10 samples.

Results

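The liver takes up fatty acids and lipoprotein remnants, binds the acids in the cytosol and passes them on to acyl-CoA synthesis. A set of 10 genes of these steps was taken by gene symbol from the 53392 rows of the deposited table: the extracellular lipases Lpl and Lipc, the lipoprotein receptor Vldlr, the membrane fatty acid transporters Cd36, Slc27a2, Slc27a4 and Slc27a5, and the cytosolic fatty acid binding proteins Fabp1, Fabp2 and Fabp4. Each symbol matched 1 row, and all 10 genes passed the filter on low counts. The libraries came from livers of C57BL/6 mice aged 24 weeks, 5 wild type (WT, replicates 1 to 5) and 5 lacking hepatic Fbp1 (Fbp1-deleted, replicates 6 to 10), fructose bisphosphatase being an enzyme of glucose synthesis. The labels do not say by what promoter or agent the gene was deleted, nor the feeding state or sex, nor whether livers came from separate litters, so p-values measure the spread between these samples.

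In outline, lipoprotein lipase and hepatic lipase cut fatty acids from circulating triglyceride and phospholipid, the VLDL receptor binds the particles that carry apolipoprotein E, CD36 and the SLC27 proteins (fatty acid transport proteins, FATP) bring long-chain acids across the membrane, and the fatty acid binding proteins (FABP) carry them inside the cell. Fabp1 is the form of the hepatocyte, Fabp2 that of the small intestine, and Fabp4 that of adipocytes, macrophages and capillary endothelium. Adult hepatocytes make much hepatic lipase and little lipoprotein lipase or VLDL receptor. PPARA and PPARG, nuclear receptors activated by fatty acids, are known to act on several of these genes, among them Fabp1, Cd36 and Vldlr.

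The libraries held between 17778395 and 23894812 estimated counts. Levels below are CPM, the counts of a gene relative to the scaled total of its library, with a group's mean ± SD taken over its 5 livers. A change is the log2 value in Fbp1-deleted liver less that in WT, with its standard error (SE). Fbp1 stood between 778 and 1050 CPM in WT and between 7.38 and 13.4 CPM in Fbp1-deleted livers, so every library matched its label. The 8 hepatocyte markers examined were all above 1 CPM and summed to between 69001 and 111564 CPM. Xist, transcribed from the inactive X chromosome, stood between 342 and 696 CPM in all 10 libraries, and the sum of 4 Y-linked genes was 2.85 CPM or less. By these values the livers of both groups were female. Fbp1-deleted replicates 8 and 10 stood apart from the other 3 livers of their group in genes of the endoplasmic reticulum stress response. Hspa5, a chaperone of that compartment, was at 512 and 630 CPM in them, at 1873 to 2133 CPM in replicates 6, 7 and 9 and at 242 to 472 CPM in WT. Counts of genes are also given without replicates 8 and 10 for the lists where they moved most.

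Of the 10 genes, 1 fell and 1 rose in Fbp1-deleted liver (quasi-likelihood test of edgeR with p adjusted over all 15392 genes tested, threshold 0.05), and 8 did not pass. Vldlr fell to 35.0% of its WT level and Fabp2 rose 1.46-fold. The share of the set past the threshold, 20%, was close to the 20.6% of all genes tested that passed in either direction (10.6% higher and 10% lower). Counts of genes in the lists below are to be read beside these shares of all genes. In 0 of the 10 genes did the 5 libraries of a group lie wholly apart from those of the other, against 13.5% of all genes tested. The median change was 0.16 over the set and 0.0093 over all genes tested. Without replicates 8 and 10 the set again had 1 gene lower and 1 higher, Vldlr (adjusted p = 0.0043) and Fabp2 (0.0313, edgeR).

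**Figure D1:**
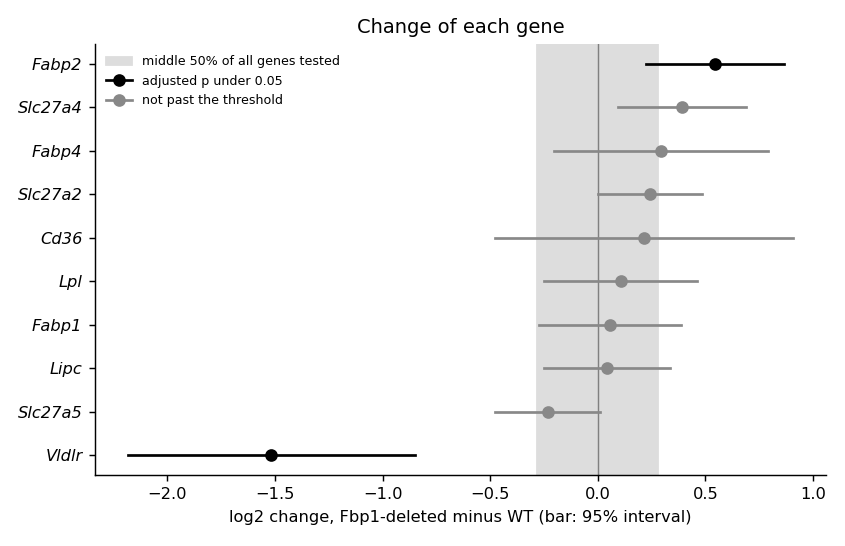
Log2 change from WT to Fbp1-deleted liver of each of the 10 genes, with the 95% interval of the fit as a bar; black marks genes past the threshold, and the grey band spans the middle 50% of all 15392 genes tested. Vldlr at -1.52 and Fabp2 at 0.55 are the genes in black, and the other 8 lie between -0.23 and 0.39.

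The upstream sequences of these 2 genes and of Fabp1, the most abundant member, are shown because fatty acid receptors are known to bind direct repeats of AGGTCA with 1 base between them (DR1). They come from RefSeq for GRCm38.p6, which held windows for 7 of the 10 genes, and each is printed 5′ to 3′ on the strand of the gene, ending before the first annotated exon. Capitals mark AGGTCA on either strand and DR1 matches with up to 2 mismatches in the 12 fixed positions. The windows are chr19:27216234-27216483 (plus strand) for Vldlr, chr3:122894822-122895071 (plus strand) for Fabp2 and chr6:71199629-71199826 (plus strand) for Fabp1.
Vldlr: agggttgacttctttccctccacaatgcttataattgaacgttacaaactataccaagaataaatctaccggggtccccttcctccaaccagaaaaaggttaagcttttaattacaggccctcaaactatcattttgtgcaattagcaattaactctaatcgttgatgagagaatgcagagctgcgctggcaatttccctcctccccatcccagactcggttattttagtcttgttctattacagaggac
Fabp2: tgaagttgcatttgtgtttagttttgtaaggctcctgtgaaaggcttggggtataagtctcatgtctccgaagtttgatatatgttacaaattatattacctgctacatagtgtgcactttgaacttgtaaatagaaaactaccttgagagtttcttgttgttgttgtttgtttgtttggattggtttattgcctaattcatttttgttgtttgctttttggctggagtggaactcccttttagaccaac
Fabp1: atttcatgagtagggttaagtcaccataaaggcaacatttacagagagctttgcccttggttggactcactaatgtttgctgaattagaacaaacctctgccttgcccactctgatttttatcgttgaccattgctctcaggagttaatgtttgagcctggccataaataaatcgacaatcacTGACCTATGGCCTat

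In these letters Fabp1 held a DR1 with 1 mismatch, 67 to 55 bases before its RefSeq start, and neither Vldlr nor Fabp2 held a match. The search used windows from 250 bases before to 50 after a start, both strands, and overlapping matches counted for each motif. A DR1 with up to 2 mismatches was present in 3.86% of all 32851 windows and AGGTCA alone in 16.3%. Among the other members, Cd36 had a DR1 with 2 mismatches in the window of its RefSeq start at 17835896 on chromosome 5, Lipc had one at the second of its RefSeq starts, and Slc27a2 had AGGTCA alone. TTCNNNGAA, the STAT5 motif, was in 8.3% of all windows, TGACG, known from sites of CREB, in 20.8%, and the E-box CACGTG in 7.15%, and none of these 3 was found in the window of any of the 7 members. In Fabp1 1 of the AGGTCA matches is part of the DR1. A match is only a match of letters. Fabp1, with its DR1, was not past the threshold, as described below.

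Vldlr, which encodes the VLDL receptor, was the member with the largest change. The gene (ENSMUSG00000024924) spans 27216484 to 27254231 on the plus strand of chromosome 19 in GRCm38. Its level in WT replicates 1 to 5 was 15.2, 17.8, 9.21, 6.23 and 14.3 CPM, and in Fbp1-deleted replicates 6 to 10 it was 4.26, 3.51, 4.85, 2.55 and 6.72 CPM. Of the Fbp1-deleted livers, 4 lay below every WT liver, and replicate 10 overlapped with WT replicate 4, the lowest of its group. The means were 12.5 ± 4.71 CPM (SD, n = 5) and 4.38 ± 1.57 CPM (SD, n = 5), and the change was -1.52 (SE 0.31, 95% interval -2.18 to -0.85, adjusted p = 0.00537, edgeR). Of all genes tested, 2.96% changed by at least as much in either direction. The call held with each library left out in turn (adjusted p between 0.00109 and 0.0191) and without both replicates 8 and 10, with a change of -1.86. The counts behind it were between 42 and 436 per library.

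Bulk RNA of liver holds several cell types, so fewer cells of a type and less RNA per cell cannot be told apart. Vldlr is known also from macrophages and endothelium. Of 10 Kupffer cell markers 6 fell and 0 rose, and their summed level was 280 to 387 CPM in WT and 201 to 306 CPM in Fbp1-deleted livers. Of 9 endothelial markers tested 1 rose and 0 fell, with sums of 278 to 321 CPM and 196 to 308 CPM. Without replicates 8 and 10, 9 Kupffer cell markers fell, and 1 endothelial marker rose and 3 fell. The part of these cells in the fall of Vldlr was not tested.

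Fabp2, which encodes the intestinal fatty acid binding protein, was the member that rose. The gene (ENSMUSG00000023057) spans 122895072 to 122899506 on the plus strand of chromosome 3, and its transcript shared no word of 31 bases with another gene. WT replicates 1 to 5 stood at 22.0, 20.6, 28.9, 22.3 and 32.9 CPM, and Fbp1-deleted replicates 6 to 10 at 40.2, 40.7, 42.6, 30.5 and 30.6 CPM. Replicates 6, 7 and 8 lay above every WT liver, while 9 and 10 lay between WT replicates 3 and 5. The group means were 25.3 ± 5.30 and 36.9 ± 5.88 CPM (SD, n = 5 each), a change of 0.55 (SE 0.15, 95% interval 0.23 to 0.87, adjusted p = 0.0201, edgeR). A change at least as large was found in 23.7% of all genes tested.

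The call of Fabp2 lay close to the threshold and did not hold in every run. It was lost without WT replicate 1 (adjusted p = 0.0505), WT replicate 2 (0.0584) or Fbp1-deleted replicate 6 (0.0543, edgeR), and with libraries scaled by their totals alone (0.0509), with changes of 0.46 to 0.52. Of 9 markers of intestinal epithelium other than Apob, which hepatocytes also make, Cdx1, Alpi and Isx had no count in any library, and the other 6, among them Vil1 and Cdh17, stood at 0.295 CPM or less.

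**Figure D2:**
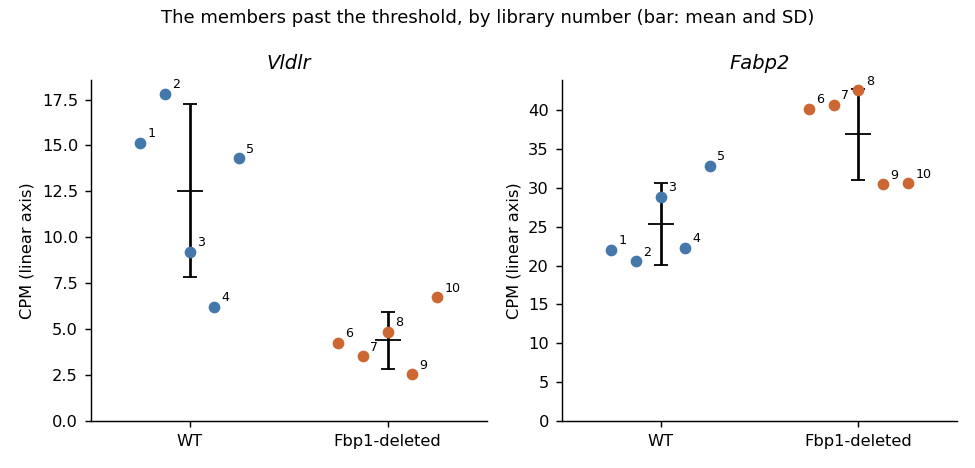
Level of Vldlr and Fabp2 in each liver (CPM, linear axis from 0), with the replicate number beside each point and the group mean and SD as a black bar. For Vldlr replicate 10 at 6.72 CPM reaches above WT replicate 4 at 6.23 CPM, and for Fabp2 replicates 9 and 10 lie within the WT range.

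The lipases differed by less than the spread between replicates. Lpl, which encodes lipoprotein lipase (chromosome 8, 68880491 to 68907448), stood at 13.7, 11.2, 10.07, 8.85 and 10.03 CPM in WT replicates 1 to 5 and at 12.3, 9.08, 15.5, 11.7 and 9.37 CPM in Fbp1-deleted replicates 6 to 10. The groups overlapped almost wholly, with 1 Fbp1-deleted liver, replicate 8, above the WT range. The change was 0.11 (SE 0.17, 95% interval -0.25 to 0.46, adjusted p = 0.685, edgeR), and -0.02 without replicate 8. Lipc, which encodes hepatic lipase (chromosome 9, 70798128 to 70952226), was more abundant, with 131.5, 141, 161, 148 and 219 CPM in WT and 168, 189, 148, 146 and 173 CPM in Fbp1-deleted livers. All 5 Fbp1-deleted livers lay inside the WT range. Its change was 0.04 (SE 0.14, 95% interval -0.25 to 0.34, adjusted p = 0.854, edgeR), with a sign that turned to -0.05 under library totals, to -0.02 under upper quartile scaling and to -0.02 without WT replicate 1, -0.00040 without WT replicate 2 and -0.0083 without Fbp1-deleted replicate 7.

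Partners of the lipases changed in both directions. Of 18 listed genes 5 rose, 3 fell and 10 did not pass. Lipg, which encodes endothelial lipase, of the same family as Lpl and Lipc, rose from 28.1 ± 9.99 to 94.0 ± 23.3 CPM (change 1.74, SE 0.30, adjusted p = 0.0031), and its lowest Fbp1-deleted liver (54.9 CPM) lay above the highest WT liver (37.3 CPM). Angptl4, an inhibitor of lipoprotein lipase, rose from 203 ± 38.2 to 304 ± 40.9 CPM (change 0.59, SE 0.14, adjusted p = 0.00881, edgeR), with 4 of 5 Fbp1-deleted livers above every WT liver. For Gpihbp1, which anchors lipoprotein lipase on capillary endothelium, and Lmf1, a factor of lipase folding, both named after their values were seen, the changes were -0.07 and -0.10 (adjusted p = 0.782 and 0.56), and for Apoc2, the activator of lipoprotein lipase, 0.34 (adjusted p = 0.244, edgeR).

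In the receptor family of Vldlr, 1 of 11 genes tested rose, 3 fell and 7 did not pass, with a median change of -0.22. Without replicates 8 and 10, 0 of 12 tested rose and 5 fell. Lrp4 fell from 68.4 ± 6.90 to 43.9 ± 7.28 CPM (change -0.64, SE 0.12, adjusted p = 0.00271, edgeR). Lrp1, the large remnant receptor of hepatocytes, fell from 1221 ± 267 to 727 ± 161 CPM (change -0.75, SE 0.17, adjusted p = 0.00936, edgeR).

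Among the membrane transporters none passed. Cd36, which encodes the scavenger receptor and fatty acid translocase (chromosome 5, 17781690 to 17888801), stood at 61.4, 67.8, 83.0, 28.0 and 77.2 CPM in WT replicates 1 to 5 and at 119, 81.5, 50.3, 56.1 and 61.0 CPM in Fbp1-deleted replicates 6 to 10. WT replicate 4 was far below its group and Fbp1-deleted replicate 6 above all others. The change was 0.21 (SE 0.31, 95% interval -0.48 to 0.91, adjusted p = 0.667, edgeR), which became 0.03 without WT replicate 4 and -0.03 without Fbp1-deleted replicate 6. Without replicates 8 and 10 it was 0.43 and did not pass (adjusted p = 0.461). The interval was the widest among the members.

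Slc27a2, which encodes FATP2, a transporter with very-long-chain acyl-CoA synthetase activity (chromosome 2, 126552407 to 126588243), stood at 1100, 1180, 1474, 1158 and 1288 CPM in WT and at 1608, 1597, 1306, 1514 and 1309 CPM in Fbp1-deleted livers. Replicates 6, 7 and 9 lay above every WT liver. The change of 0.24 (SE 0.11, 95% interval 0.00090 to 0.48) had an unadjusted p of 0.0493 and did not pass (adjusted p = 0.143, edgeR). Of its words of 31 bases 10.3% also occur in Gm26697, on the opposite strand, to which between 1 and 19 counts were assigned per library, against 21189 or more for Slc27a2. Slc27a5, which encodes FATP5, the bile acid CoA ligase and fatty acid transporter of the liver (chromosome 7, 12988346 to 12998192), lay on the other side of 0. Its level was 823, 1006, 1172, 1132 and 1013 CPM in WT and 802, 856, 980, 821 and 919 CPM in Fbp1-deleted livers, with 2 Fbp1-deleted livers below the WT range. The change was -0.23 (SE 0.11, 95% interval -0.48 to 0.01, adjusted p = 0.163, edgeR).

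Slc27a4, which encodes FATP4 (chromosome 2, 29802634 to 29817522), came nearest to the threshold among the genes that did not pass. WT replicates 1 to 5 stood at 28.0, 36.2, 43.0, 47.5 and 45.7 CPM and Fbp1-deleted replicates 6 to 10 at 54.4, 55.1, 56.7, 53.2 and 43.0 CPM. The first 4 of these Fbp1-deleted livers lay above every WT liver, and replicate 10 lay inside the WT range. The change was 0.39 (SE 0.14, 95% interval 0.09 to 0.69, adjusted p = 0.0618, edgeR). It passed without Fbp1-deleted replicate 10 (adjusted p = 0.0436), without WT replicate 4 (0.0377) and in DESeq2 (0.0453). Of 4 other genes of the FATP and FABP families with enough counts to test, Slc27a3 rose from 1.14 ± 0.413 to 3.36 ± 1.59 CPM (change 1.57, SE 0.37, adjusted p = 0.0106, edgeR), and 3 did not pass, while 6 had too few counts.

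**Figure D3:**
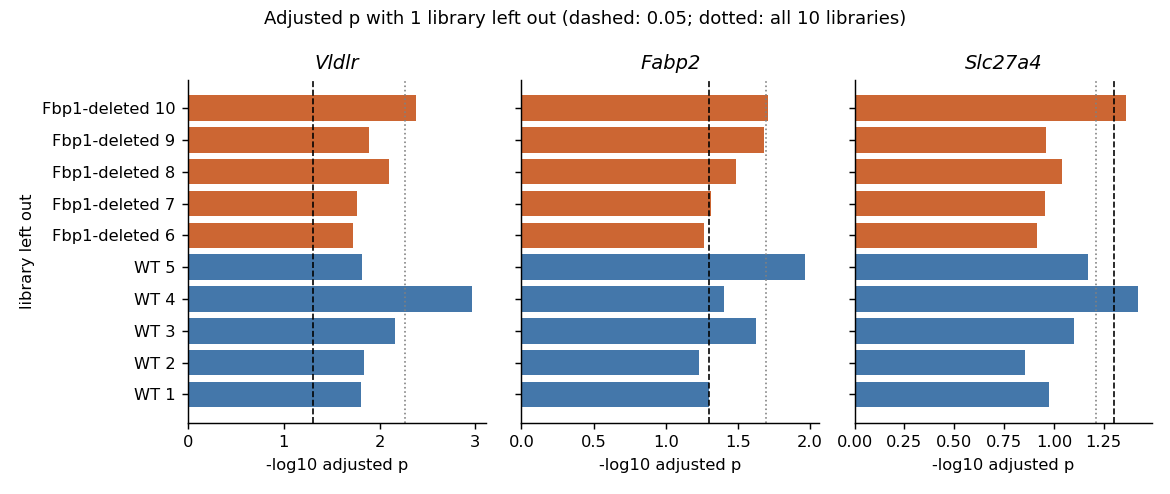
Evidence for Vldlr, Fabp2 and Slc27a4 with each library left out in turn (bars, -log10 of the adjusted p, blue for WT and orange for Fbp1-deleted libraries). The dashed line is the threshold of 0.05 and the dotted line the value with all 10 libraries. All 10 bars of Vldlr pass the dashed line, 3 of Fabp2 fall short of it, and 2 of Slc27a4 pass it.

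Fabp1, the carrier of the hepatocyte cytosol, was the most abundant member and did not pass. The gene (chromosome 6, 71199827 to 71205023) stood at 2444, 2173, 2224, 1842 and 2368 CPM in WT and at 1988, 2385, 2930, 2623 and 1573 CPM in Fbp1-deleted livers. The Fbp1-deleted livers lay on both sides of the WT range, with replicates 8 and 9 above it and replicate 10 below. The coefficient of variation was 10.5% in WT and 23.1% in Fbp1-deleted livers. The change was 0.06 (SE 0.15, 95% interval -0.27 to 0.39, adjusted p = 0.824, edgeR) and turned to -0.03 under library totals, -0.02 under upper quartile scaling, -0.04 without Fbp1-deleted replicate 8 and -0.00061 without WT replicate 4.

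Fabp4, the carrier of adipocytes and macrophages (chromosome 3, 10204088 to 10208576), had the lowest WT mean in CPM among the members. In Fbp1-deleted livers the mean of Vldlr was lower (4.38 against 5.21 CPM), and levels per length are given below. Fabp4 stood at 5.95, 4.94, 3.57, 4.32 and 2.37 CPM in WT and 5.08, 5.46, 4.12, 6.86 and 4.52 CPM in Fbp1-deleted livers. Only replicate 9 lay above the WT range. The change was 0.29 (SE 0.23, 95% interval -0.20 to 0.79, adjusted p = 0.397, edgeR), from between 46 and 121 counts per library. The 7 adipocyte markers found in the table were below 1 CPM in each library and Lep had no count, with sums of 0.656 to 1.85 CPM in WT and 0.661 to 1.26 CPM in Fbp1-deleted livers. The Kupffer cell markers, lower as given above, and the markers of monocytes and lipid-laden macrophages (1 of 9 tested rose and 2 fell, and 0 rose and 2 fell without replicates 8 and 10, sums of 97.4 to 132 CPM and 71.5 to 106 CPM) include cells that also express Fabp4, whose part was not tested.

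**Figure D4:**
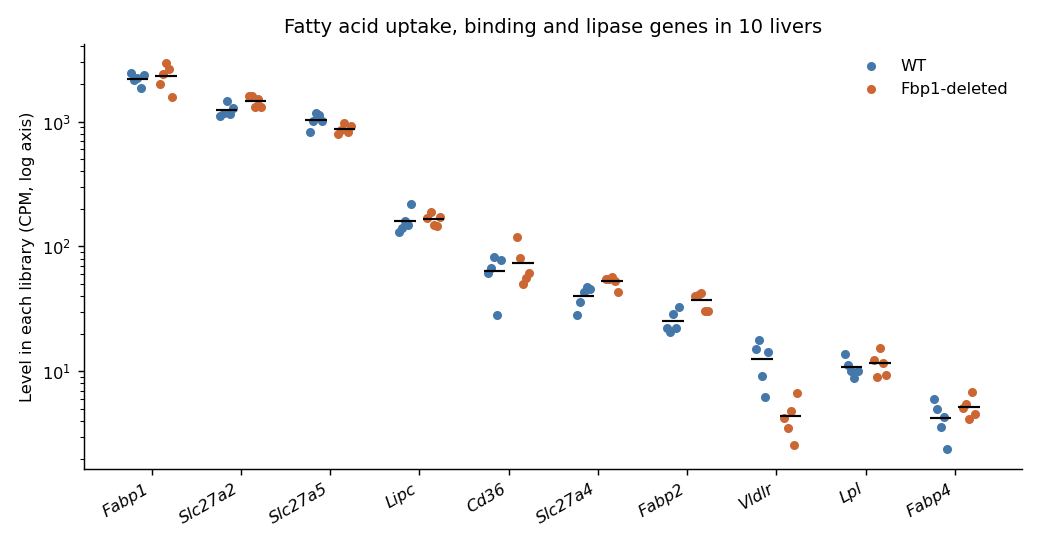
Level of the 10 genes in each of the 10 livers (CPM, log axis), in order of the WT mean, with blue points for WT, orange points for Fbp1-deleted and a black line at each group mean. The groups overlap for every gene, and the levels run from 2.37 CPM for Fabp4 to 2930 CPM for Fabp1.

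Levels of different genes were compared per length, as CPM per kilobase of the principal annotated transcript, a length chosen after the data were seen because the union of exons of Lpl and Fabp4 holds long stretches outside it. On that scale Fabp1 led with 3996 in WT, followed by Slc27a5 with 450 ± 59.7 and Slc27a2 with 425 ± 50.5, which lay within each other's spread. Lipc came next with 83.4, then Fabp2 with 26.2 ± 5.49, Cd36 with 18.7 ± 6.33, whose ranges over livers overlap, and Slc27a4 with 9.89 ± 1.98. Fabp4, Lpl and Vldlr stood at the end with 4.72, 2.61 and 1.57 CPM per kilobase. Over the union of exons these 3 stood at 0.942, 1.03 and 1.25, so their order depends on the length used. In Fbp1-deleted livers the order of the first transporters was the other way round, with Slc27a2 at 503 ± 51.3 and Slc27a5 at 383 ± 32.1, and Vldlr was last with 0.549.

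Ratios of counts within a library do not depend on how libraries are scaled, and 7 ratios between members were compared by exact two-sided permutation tests, for which 5 libraries against 5 allow a smallest p of 0.00794. None passed after adjustment over the 7 ratios. The log2 ratio of Slc27a5 to Slc27a2 was -0.27 ± 0.15 in WT and -0.74 ± 0.26 in Fbp1-deleted livers, a difference of -0.47 (exact permutation p = 0.0159, adjusted p = 0.0556), with 1 library of the Fbp1-deleted group inside the WT range. The log2 ratio of Vldlr to Lpl went from 0.14 ± 0.48 to -1.44 ± 0.62, a difference of -1.58 with the same exact p and adjusted p. That of Fabp2 to Fabp1 went from -6.46 ± 0.28 to -5.94 ± 0.33 (exact permutation p = 0.0397, adjusted p = 0.0926). For Lpl to Lipc, Cd36 to Fabp1, Fabp4 to Fabp1 and Slc27a4 to Slc27a2 the differences were 0.03, 0.20, 0.31 and 0.16, with adjusted p between 0.433 and 0.913 (exact permutation test).

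**Figure D5:**
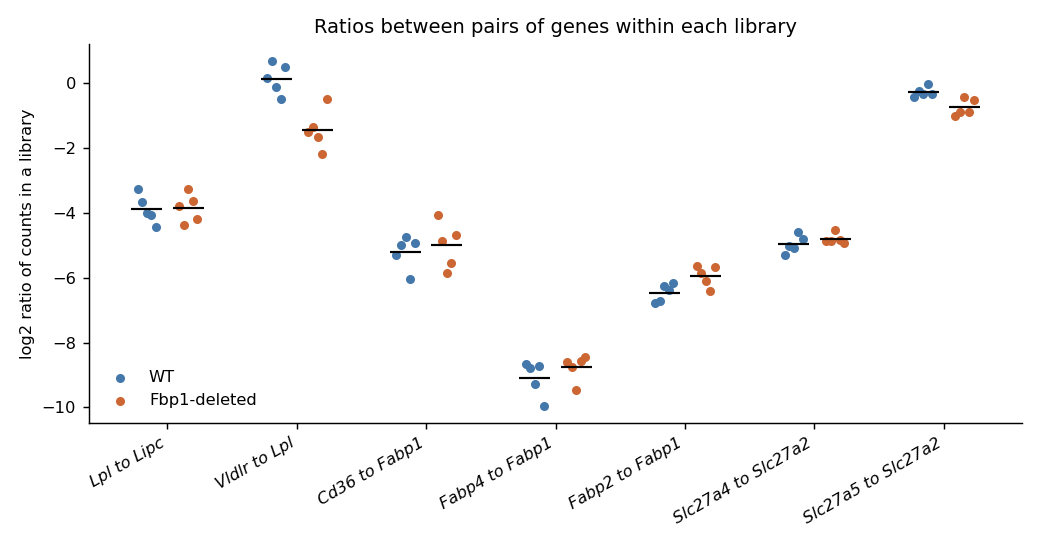
Log2 ratio of the counts of 2 members in each library, for the 7 pairs compared, with blue points for WT, orange points for Fbp1-deleted and a black line at each group mean. The smallest p among the 7 belongs to Vldlr to Lpl and Slc27a5 to Slc27a2, and in both pairs a library of one group reaches into the range of the other.

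Of 15 other genes that handle fatty acids at the membrane and in the cytosol 3 rose and 0 fell, with a median change of 0.11. Of all genes tested, 20.6% passed in either direction, so this count is near that share. Mfsd2a, a transporter of lysophosphatidylcholine that carries fatty acids, rose from 194 ± 36.5 to 415 ± 93.3 CPM (change 1.10, SE 0.17, adjusted p = 0.000898, edgeR). Scp2, a peroxisomal sterol carrier and thiolase, rose from 1482 ± 164 to 2287 ± 239 CPM (change 0.63, SE 0.11, adjusted p = 0.00194, edgeR). Neither gene had overlapping groups.

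Receptors and coactivators that sense fatty acids moved in both directions, with 2 of 17 higher, 3 lower and 12 not past the threshold. Ppargc1a, a coactivator of PPARA, rose by 2.67 (SE 0.30), the constitutive androstane receptor gene Nr1i3 fell by 1.07 (SE 0.15), and Rxrg, a partner of PPARs, fell by 1.14 (SE 0.20) on the log2 scale. The WT mean of Rxrg was 7.39 CPM. Rxra, a partner of the same family named after its values were seen, had a WT mean of 646 CPM. It fell by 0.36 (SE 0.10, adjusted p = 0.0242, edgeR). Ppara and Pparg themselves, named after their values were seen, did not pass: the change was -0.38 (SE 0.16, adjusted p = 0.0969) for Ppara and 0.08 (SE 0.17, adjusted p = 0.772, edgeR) for Pparg, at 106 and 7.36 CPM in WT. Of 28 targets of PPARA that are not members, 7 rose and 2 fell, with a median change of 0.17, and without replicates 8 and 10, 11 rose and 2 fell. The lipid droplet protein gene Plin2 rose by 0.83 (SE 0.13), and the acyl-CoA thioesterase gene Acot3 fell by 2.02 (SE 0.20). Of 10 genes tested from a list of PPARG targets of fatty liver, 5 rose and 0 fell, with a median change of 1.18. That list also holds genes of fatty acid synthesis and of its NADPH supply. Acaca, Me1 and Fasn, the last named after its values were seen, were among the 5. Whether PPARG acted on them was not tested. Acaca, an enzyme of fatty acid synthesis, and Me1, malic enzyme, rose by 1.52 (SE 0.14) and 1.64 (SE 0.15). Of the members, Cd36, Fabp1, Fabp4, Lpl and Slc27a2, known as targets of these receptors, did not pass, and Vldlr, also a known target, fell. That list of targets is not complete. Among the remaining members Fabp2 rose, and Slc27a4 and Slc27a5 did not pass, as given above. Whether these receptors acted on any member was not tested.

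Likeness to other genes was measured as Pearson's r of the deviations from the group mean (log2 CPM) over the 10 libraries, against 8229 genes. Vldlr and Fabp4, under 10 CPM on average, were left out. The nearest genes were Slc25a20 for Slc27a2 (r = 0.96, Spearman's rho = 0.92), Ap2a1 for Slc27a4 (r = 0.98, rho = 0.92), Ulk1 for Slc27a5 (r = 0.96, rho = 0.90), Agpat2 for Fabp2 (r = 0.95, rho = 0.87), C1rl for Fabp1 (r = 0.92, rho = 0.82), Rnd1 for Lipc (r = 0.93, rho = 0.88), Fam214b for Cd36 (r = 0.91, rho = 0.88) and Jade2 for Lpl (r = 0.87, rho = 0.78). Each is the highest of 8229 values over the same 10 libraries, so no p is given.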

How the data were processed

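RNA of 10 snap-frozen livers was isolated with a column kit and made into mRNA libraries that do not keep the strand, per the labels' protocols. The authors deposited 1 table of estimated counts per gene. CASAVA, Salmon and GRCm38 are listed in the submitters' processing notes, without versions. Whether counts were adjusted for transcript length is not given in the sources used here. All values were whole. Identifiers were matched to GENCODE M21.

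The 2 groups were compared with edgeR 4.0.16 under R 4.3.3 (filterByExpr, TMM factors, robust quasi-likelihood F test, group as the only term), with Benjamini-Hochberg adjustment over 15392 genes. SE is the size of the log2 change over the square root of F, and 95% intervals use the t distribution with the degrees of freedom of the fit. CPM uses TMM-scaled library sizes. The script was tested on simulated data. Ratios had 0.5 count added to each gene. The alternatives were other scalings, filters and thresholds, DESeq2 1.42.0, limma-voom (limma 3.58.1), a run without the 8 most abundant genes (over 1% of a library) and runs with libraries left out. A length per principal transcript, and list counts without Fbp1-deleted replicates 8 and 10, were added after the data were seen.

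Members and gene lists were chosen with earlier results of these data known. Named from each list were the 2 genes with the smallest adjusted p (3 for lists of over 15 genes), of which some are not reported here. The labels speak of 5 replicates per group. No batch was given.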

Additional observations from a re-analysis of the deposited data

Results flagged for a closer look

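Within groups of 5 livers, values standing far from their group were looked for in each member and ratio, 34 groups in all, of which chance marks about 1 in 20. Cd36 in WT replicate 4 (28.0 CPM) stood below the other WT livers (61.4 to 83.0 CPM). Slc27a4 in Fbp1-deleted replicate 10 (43.0 CPM) stood below the other Fbp1-deleted livers (53.2 to 56.7 CPM). The log2 ratio of Slc27a4 to Slc27a2 in Fbp1-deleted replicate 8 (-4.52) stood above the rest of its group.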

How the results depend on the processing

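Over all genes tested, 1636 rose and 1542 fell, against 678 and 633 at an adjusted p threshold of 0.01. With each library left out in turn, the number that rose lay between 1066 (without Fbp1-deleted replicate 9) and 2060, and the number that fell between 1019 (without Fbp1-deleted replicate 6, which left 1086 higher) and 1858. The share of calls that were higher was 51.5% under TMM, 40.3% under upper quartile scaling and 37.7% under plain totals. Of the 10 members, 1 rose in the analysis reported, 0 with library totals or at a threshold of 0.01, 2 in DESeq2, and between 0 and 2 with each library left out, the genes concerned being Fabp2 and Slc27a4. The number of members that fell was 1 in every alternative run. No ratio passed in any alternative run. Runs with fewer libraries allow fewer labelings in the permutation test. Without replicates 8 and 10, Vldlr to Lpl and Slc27a5 to Slc27a2 had groups that did not overlap. Both then had the smallest p that run allows, with an adjusted p of 0.0625 (exact permutation test). For these ratios that run therefore cannot serve as a check. No paired analysis was possible because the replicate numbers differ between the groups. Vldlr, Fabp4 and Lpl, with no more than 436 counts in any library, carry the most counting error. Of the words of 31 bases of Lpl, 3.97% also occur in other genes (869 genes). Whether reads of those genes were counted as Lpl was not tested.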

Other observations

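Other gene lists with a known link to these genes were counted in the same way, as description. Of 15 genes of the growth hormone and STAT5 pathway, components such as Stat5a as well as responsive genes, 2 rose and 6 fell. Igfals, which encodes a subunit of the circulating IGF complex, fell by 1.94 on the log2 scale (SE 0.26) and Stat5a by 1.11 (SE 0.18). Of 14 genes of the endoplasmic reticulum and integrated stress responses tested, 10 rose and 0 fell, and without Fbp1-deleted replicates 8 and 10, 13 of 15 rose. Those replicates were set apart by low values in this same response of the endoplasmic reticulum. The larger count without them is therefore no separate evidence. Hsp90b1 and Hspa5, chaperones of that compartment, rose by 1.06 (SE 0.24) and 2.04 (SE 0.44), with replicates 6, 7 and 9 far above replicates 8 and 10. Hsp90b1 was at 1528 to 1810 CPM in the former, at 793 and 728 CPM in the latter and at 585 to 722 CPM in WT. Ddit3, a transcription factor of this response, named after its values were seen, was at 45.6 to 55.4 CPM in the former and at 5.53 and 7.22 CPM in the latter, inside the WT range of 5.35 to 8.59 CPM. Of 12 hypoxia-responsive genes tested 2 rose and 2 fell, among them the prolyl hydroxylase gene Egln3 with a rise of 1.16 (SE 0.15) and Bnip3 with a fall of 0.51 (SE 0.11), and 4 fell without replicates 8 and 10. Of 9 liver genes known to be higher in females 2 fell, and of 8 tested that are known to be higher in males 2 rose, or 1 without replicates 8 and 10. Of 8 hepatocyte markers 2 rose, of 10 stellate cell markers 1 rose (0 rose and 1 fell without replicates 8 and 10), of pancreas markers 1 was tested and fell, and of muscle markers 1 was tested and did not pass.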
